A study of Homo sapiens with 4 samples.

Results

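Histone genes of the HIST1, HIST2 and HIST3 clusters were followed here, taken as every gene whose symbol starts with HIST1H, HIST2H or HIST3H and that reached at least 4 UMIs (distinct RNA molecules) in 1 library. The files listed 33538 genes, of which 70 had such a symbol. Of these 70, 47 reached the minimum, 13 had 1 to 3 UMIs at most and 10 had 0 UMIs in every library, which allows up to 3 counts per library. The minimum can be met by the library where a gene is highest, so the 47 genes are not all histone genes of the cells. They were divided, from background knowledge, into 9 genes known to give polyadenylated transcripts as well (HIST1H1C, HIST1H2AC, HIST1H2BC, HIST1H2BD, HIST1H2BJ, HIST1H2BK, HIST1H4H, HIST2H2BE and HIST2H2BF) and 38 others, called canonical.

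The cells were HCEC 1CT, progenitor-like cells of the human colonic epithelium that carry TERT and CDK4 and so divide without limit. Droplet RNA sequencing of single cells was done after transduction with an shRNA against the tumour suppressor APC (shAPC) or a scrambled shRNA (shScr), with puromycin given in all arms. Cells were harvested at day 3 and day 7, so that there were 4 groups, shScr and shAPC on day 3 and the same on day 7. Each group held 1 library of 1 line, so no comparison between groups below has a replicate check, and every interval printed covers counting error only at the 95% level.

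Histones are the proteins around which DNA is wound. The core particle is built from H2A, H2B, H3 and H4, while the linker histone H1 sits where the DNA enters and leaves it. Canonical histone genes lie in clusters without introns, are transcribed while DNA is copied, and their mRNAs end in a conserved stem-loop bound by SLBP in place of a poly(A) tail. Some cluster genes also give longer, polyadenylated transcripts in cells that are not copying DNA. The libraries were primed on poly(A), so a canonical transcript is counted only as far as it was captured by that primer, and levels of different genes reflect capture as well as abundance.

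The stem-loop is shown because both kinds of gene carry it. Of the 47 genes, 43 were found by identifier in GENCODE 44 (GRCh38), and all 43 had a 16-base stem-loop whose first base lay 23 to 63 bases after the stop codon. In the sequences that follow, written as DNA from 5′ to 3′, the capitals mark the loop between both arms of the stem.
Most common form, in 22 genes, HIST1H2AC and HIST1H1D among them: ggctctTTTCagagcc
Form in 7 genes, HIST1H4C and HIST1H4H among them: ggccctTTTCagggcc
Form in 7 genes, HIST1H2BC and HIST1H2BJ among them: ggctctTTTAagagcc
The same form thus occurred in HIST1H4C, of the canonical class, and in HIST1H4H, of the polyadenylated class. The annotated transcripts differed beyond it. The longest annotated end ran 44 to 84 bases past the stop codon in 28 genes and 384 to 4594 bases in 15, with none between. The annotation placed 2 polyadenylated genes (HIST1H1C and HIST1H2BK) among the short ends, and several genes held here as canonical among the long ones, HIST3H2A, HIST1H2BN, HIST1H3E, HIST1H3H and HIST2H4A included.

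Many of these genes stand head to head, an H2A gene and an H2B gene on opposite strands with their start sites a short distance apart. RefSeq annotation of GRCh38.p14 gave a promoter for 40 of the 47 genes. Among these 40 there were 8 such pairs, with start sites 194 to 248 bases apart. HIST1H2BK and HIST1H2AH also stand head to head in GENCODE 44. No promoter of HIST1H2AH was found, so they are not among the 8. The plus strand between the start sites is printed for 2 pairs, since their members are compared below, with capitals for the octamer (ATTTGCAT), the CCAAT box (CCAAT) and the TATA box (TATAAA), each searched on both strands.
HIST1H2BC (minus strand) and HIST1H2AC (plus strand), chr6:26123927-26124171: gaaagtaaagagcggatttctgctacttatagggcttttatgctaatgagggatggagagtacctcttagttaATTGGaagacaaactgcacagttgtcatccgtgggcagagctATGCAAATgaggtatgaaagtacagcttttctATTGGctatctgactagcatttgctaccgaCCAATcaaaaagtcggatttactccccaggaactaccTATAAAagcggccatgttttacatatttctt
HIST2H2BE (minus strand) and HIST2H2AC (plus strand), chr1:149886683-149886917: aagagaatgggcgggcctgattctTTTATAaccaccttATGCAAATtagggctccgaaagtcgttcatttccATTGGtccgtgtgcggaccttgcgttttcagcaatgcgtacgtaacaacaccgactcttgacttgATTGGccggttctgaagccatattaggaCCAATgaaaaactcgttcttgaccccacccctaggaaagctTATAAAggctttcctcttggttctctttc
Each stretch held 1 octamer and 3 CCAAT boxes, with 1 TATA box in the former and 2 in the latter. Over windows of 250 bases before to 50 bases after the start, the octamer was present in 7 of 10 H2A promoters and 10 of 14 H2B promoters of these genes, in none of the 5 H1, 3 H3 and 8 H4 promoters, and in 1.80% of all 27305 promoters. The promoter of HIST1H4C was not found and is not among the 8. The windows of a head-to-head pair overlap, so a match can be counted for both members. The CCAAT box was in 33 of the 40 promoters found (82.5%) against 35.7% of all, and the TATA box in 24 of 40 (60.0%) against 11.95% of all. A match is a description of the letters and not of binding.

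Facts of the whole series that touch these genes were as follows. After barcodes were kept with at least 200 genes, 500 UMIs and under 5% mitochondrial UMIs, the libraries held 788 to 2600 cells and 28451455 to 39797418 UMIs, with the shallowest cells in shScr day 7 (1330 UMIs per cell in the median, against 21029.5 to 49685.5 in the others). On day 3 APC itself had 639 UMIs under shScr against 193 under shAPC (log2 ratio -1.54, -1.78 to -1.31), and on day 7 it had 597 against 188 (-1.53, -1.78 to -1.29). The epithelial label had little support in RNA: EPCAM, CDH1, CDX2 and VIL1 had 0 to 2 UMIs in every library. KRT8 had 9.57 to 19.4 CPM (UMIs scaled to a total of 1000000) and KRT18 and KRT19 2.34 to 7.13 CPM. Of the mesenchymal genes, VIM had 4010 to 5303 CPM, and COL1A1, COL1A2 and FN1 had 492 to 3676. The mesenchymal gene CDH2 was low, with 3.66 to 7.69 CPM, below KRT8 in each library. Of the blood and endothelial markers, PTPRC and PECAM1 had 0 or 1 UMI, and the haemoglobin gene HBB had 21 in shAPC day 3 against 3 to 6 in the others. The part of such RNA in the results was not tested. Kept barcodes occurred in more than 1 library, 19 of them in both day 3 libraries. In 18 of those 19 the deep copy was in shAPC day 3, and the deep copies had 60145 to 183012 UMIs against 505 to 729 in the shallow ones. Shared barcodes held 15.2% of the histone UMIs of shAPC day 3 and 0.114% to 1.36% of those of the others, so the day 3 sums are also given without them.

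HIST1H4C, which encodes histone H4, gave more UMIs than any other of the 47 genes in each library. It lies on chromosome 6 at 26103933 to 26104337 (plus strand, 1 exon). It had 6276 UMIs (158 CPM) in shScr day 3, 4641 (133 CPM) in shAPC day 3, 9233 (296 CPM) in shScr day 7 and 7282 (256 CPM) in shAPC day 7. Its share of all histone UMIs was 60.6% (exact binomial interval 59.6 to 61.5) in shScr day 3, 58.2% (57.4 to 59.0) in shScr day 7 and 51.9% (51.0 to 52.7) in shAPC day 7, but 24.3% (23.7 to 24.9) in shAPC day 3. The low share in shAPC day 3 came with higher counts of other genes: HIST1H2AC, an H2A gene, took 9.89% of histone UMIs in shScr day 3 and 23.0% in shAPC day 3, and HIST3H2A, another H2A gene, 4.00% and 9.52%. The plot of levels by library shows this order for 23 genes.

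**Figure D1:**
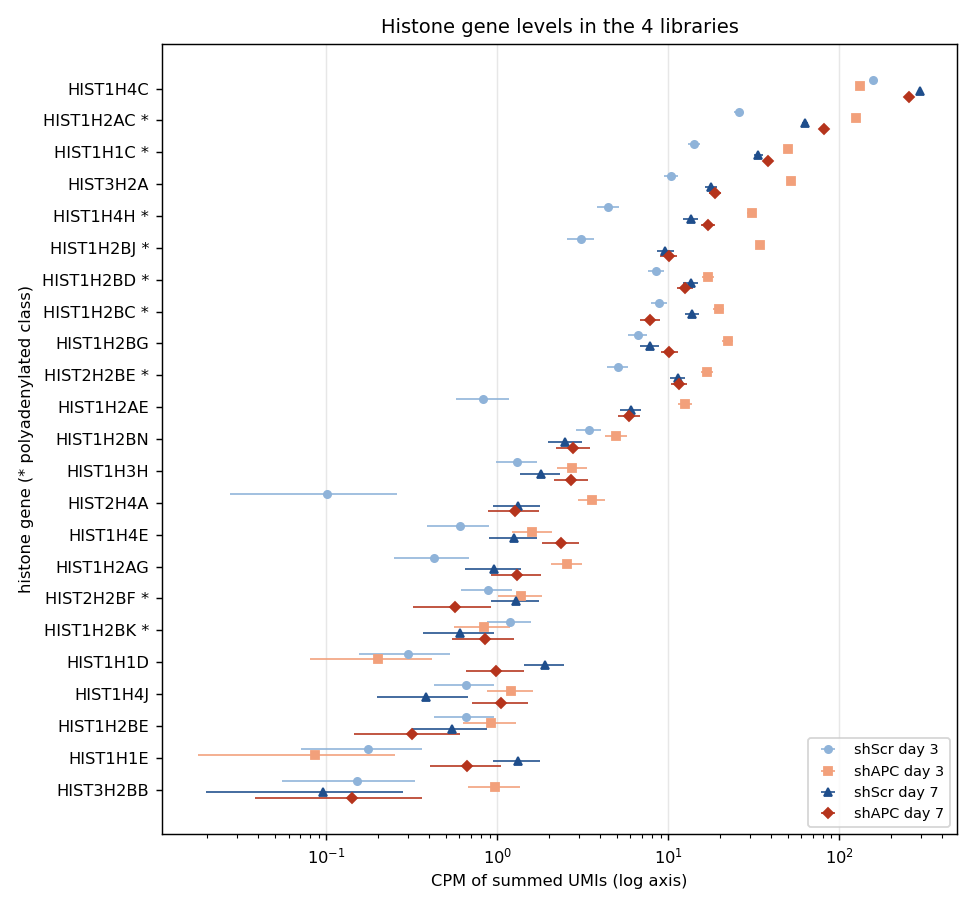
Level of 23 histone genes in each library, in CPM of UMIs summed over kept cells, on a log axis. Points are libraries, bars are exact Poisson 95% intervals (counting error only), and asterisks mark the polyadenylated class. HIST1H4C lay at 133 to 296 CPM, and for most of the other genes shScr day 3 was the lowest point and shAPC day 3 the highest.

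Summed by class, the canonical genes had 188 CPM in shScr day 3, 249 in shAPC day 3, 348 in shScr day 7 and 313 in shAPC day 7. Much of this sum was HIST1H4C, with 6276 of 7499 UMIs in shScr day 3 and 4641 of 8710 in shAPC day 3. On day 7 it had 9233 of 10864 in shScr and 7282 of 8917 in shAPC. The polyadenylated genes had 71.9, 297, 160 and 180 CPM in the same order. In both arms the canonical sum was therefore higher on day 7, whereas the polyadenylated sum was lowest in shScr day 3 and highest in shAPC day 3, with both day 7 libraries between.

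The first comparison asked how histone RNA differed between shAPC and shScr at day 3. The polyadenylated sum was higher in shAPC by a log2 ratio of 2.05 (1.99 to 2.11) and the canonical sum by 0.40 (0.36 to 0.45). HIST1H4C went the other way, with a log2 ratio of -0.25 (-0.30 to -0.19), and without it the canonical sum was higher by 1.92. Among the 23 genes with at least 30 UMIs in 1 of both libraries, 11 were at least 2-fold higher in shAPC on log2(CPM + 1) and 0 were 2-fold lower, against 3.77% and 0.284% of all 13014 genes counted the same way. The median log2 difference on that scale was 0.98 for the 23 genes and 0.30 for all genes. Of the 7 genes with at least 20 CPM in 1 of both libraries, 6 were 2-fold higher and 0 lower, against 3.86% and 0.425% of all 5175. Only HIST1H4C and HIST1H2AC of these 7 reached 20 CPM in shScr. The others met the minimum only through shAPC, where they were high, so no conclusion is drawn from this count. HIST2H4A and HIST1H2AG, among the 11 genes above, likewise had 30 UMIs in shAPC only.

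By type of histone, all 5 H2A genes with at least 30 UMIs were higher in shAPC at day 3. HIST1H2AC had 25.8 CPM in shScr and 126 in shAPC, a log2 ratio of 2.29 (2.19 to 2.39). HIST3H2A had 10.4 and 52.0 CPM, a ratio of 2.32 (2.17 to 2.48). HIST1H2AE, with 33 and 439 UMIs (0.829 and 12.6 CPM), had 3.92 (3.41 to 4.48). For these, shAPC day 3 was also above both day 7 libraries, so that each was highest there of the 4. HIST1H2AG and HIST2H2AC, with fewer UMIs, had ratios of 2.58 (1.82 to 3.42) and 1.52 (0.99 to 2.06). HIST1H2AG met the minimum of 30 UMIs in shAPC only, with 17 UMIs in shScr and 89 in shAPC.

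Most H2B genes were higher in shAPC at day 3 as well. HIST1H2BJ had 122 UMIs (3.07 CPM) in shScr and 1199 (34.3 CPM) in shAPC, a log2 ratio of 3.48 (3.21 to 3.77). HIST1H2BG had 6.61 and 22.2 CPM, HIST2H2BE 5.05 and 16.9, HIST1H2BC 8.84 and 19.8 and HIST1H2BD 8.49 and 17.2, with ratios of 1.75, 1.75, 1.16 and 1.02. HIST3H2BB had 6 and 34 UMIs, a ratio of 2.69 (1.42 to 4.23). The lower end was formed by HIST1H2BN at 0.53 (0.20 to 0.87), HIST1H2BE at 0.49 (-0.31 to 1.29), HIST2H2BF at 0.64 (-0.02 to 1.31) and HIST1H2BK at -0.51 (-1.23 to 0.19), and of these only the interval of HIST1H2BN lay off 0. No change of the other 3 was detectable at this depth.

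Among the H4 genes, HIST1H4C and its relatives parted. At day 3 HIST1H4H had 177 UMIs (4.45 CPM) in shScr against 1078 (30.8 CPM) in shAPC, with a ratio of 2.79 (2.56 to 3.03). HIST2H4A had 4 and 125 UMIs, a ratio of 5.15 (3.76 to 7.05), though HIST2H4A and HIST2H4B are near-identical copies between which reads cannot be assigned with certainty. HIST1H4E had 24 and 56 UMIs (1.41, 0.70 to 2.16) and HIST1H4J 26 and 42 (0.88, 0.14 to 1.64). The H4 genes thus lay on both sides of 0, with HIST1H4C alone below it.

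Among the linker histone genes, 1 had a day 3 ratio whose interval lay off 0. HIST1H1C, which encodes a linker histone H1 variant, had 563 UMIs (14.1 CPM) in shScr on day 3 against 1754 (50.2 CPM) in shAPC, with a log2 ratio of 1.83 (1.69 to 1.97). HIST1H1D had 12 and 7 UMIs, HIST1H1E 7 and 3 and HIST1H1B 5 and 11, with ratios of -0.59, -1.03 and 1.33. At these counts no difference was detectable for HIST1H1D (-2.17 to 0.87), HIST1H1E (-3.62 to 1.10) or HIST1H1B (-0.32 to 3.20). The H3 genes were low, with HIST1H3E at 2.09 and 4.18 CPM (1.00, 0.60 to 1.41) and HIST1H3H at 1.31 and 2.75 CPM (1.07, 0.57 to 1.59).

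The median of all genes was also higher in shAPC at day 3, and scaling by TMM took 0.38 off each log2 ratio, which left the canonical sum at 0.02 and the polyadenylated sum at 1.67. Without the 5% of cells with the most UMIs in each library the polyadenylated ratio was 1.36 and the canonical 0.22, and without shared barcodes they were 1.88 and 0.25.

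**Figure D2:**
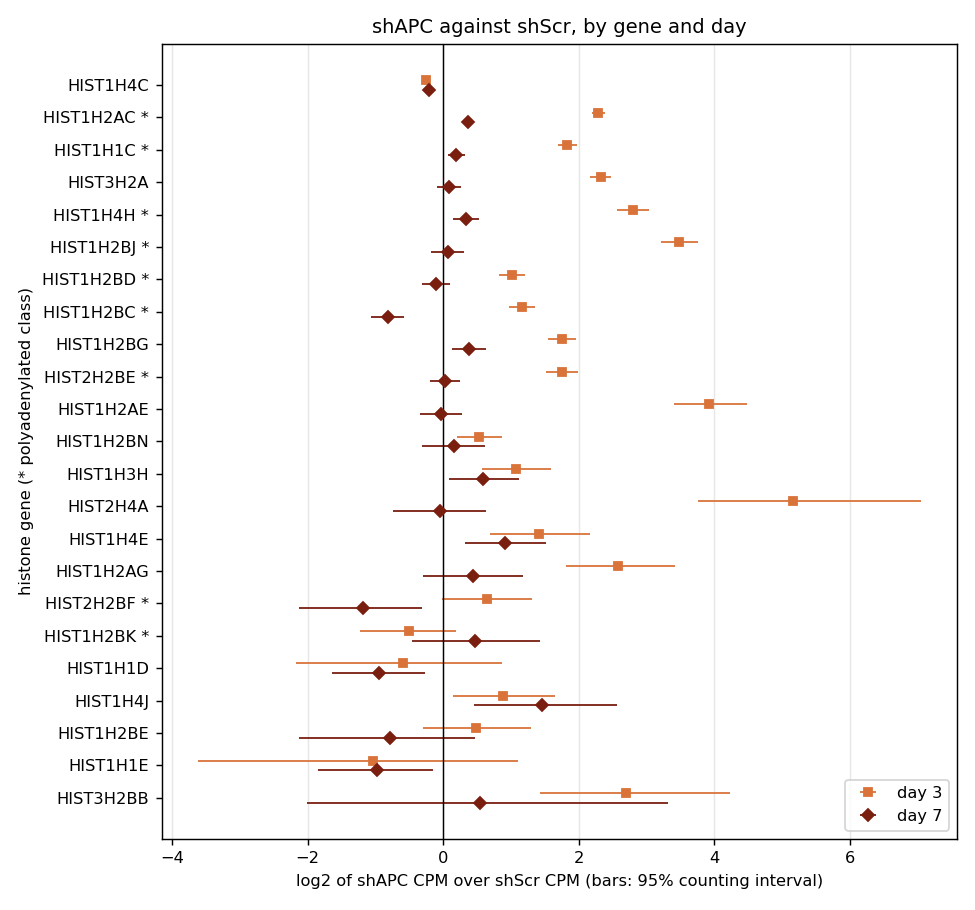
Log2 of the shAPC CPM over the shScr CPM for the same 23 genes at day 3 (squares) and day 7 (diamonds), with exact conditional binomial 95% intervals (counting error only, 1 library per group). At day 3 HIST1H4C lay at -0.25 while HIST1H2BJ, HIST1H2AE and HIST2H4A lay above 3, and at day 7 most genes lay near 0.

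At day 7 the same comparison gave smaller differences. The polyadenylated sum had a log2 ratio of 0.17 (0.11 to 0.22) and the canonical sum -0.15 (-0.19 to -0.11). Of 22 genes with at least 30 UMIs in 1 of both libraries, 0 were 2-fold higher and 0 were 2-fold lower on log2(CPM + 1), against 1.3% and 1.07% of all 12578 genes. With the minimum of 20 CPM, which 3 of the genes met, the counts were 0 and 0 as well, against 0.787% and 1.77%. The added 1 CPM shrinks the ratios of genes with few counts. On plain log2 ratios, 1 of the 22 was 2-fold higher and 1 was 2-fold lower, against 3.7% and 2.31% of all 12578 genes. On the plain scale 7 of the 22 had an interval above 0 and 5 an interval below 0. The share of all genes with such intervals is not given here, so no conclusion is drawn from these 2 counts. HIST1H2AC had 63.0 CPM in shScr and 81.1 in shAPC (0.36, 0.28 to 0.45), and HIST1H4C 296 and 256 (-0.21, -0.25 to -0.16). HIST3H2A, HIST1H2BJ, HIST2H2BE and HIST1H2AE, all at least 3-fold higher in shAPC at day 3, had intervals that included 0 at day 7. HIST1H2BC was lower in shAPC, with 13.8 and 7.84 CPM (-0.82, -1.06 to -0.58), and so were HIST2H2BF (-1.19, -2.12 to -0.32), HIST1H1D (-0.94, -1.64 to -0.27) and HIST1H1E (-0.98, -1.84 to -0.16). HIST1H4J (1.46, 0.45 to 2.56) and HIST1H4E (0.92, 0.32 to 1.52) were higher, as were HIST1H3H (0.59), HIST1H2BG (0.38), HIST1H4H (0.34) and HIST1H1C (0.20). The canonical and polyadenylated signs at day 7 both turned when CPM were averaged over cells in place of summing UMIs, to 0.15 and -0.06.

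The days were then compared inside each arm, with shScr as the control for time in culture. In shScr, both sums were higher at day 7, the canonical by a log2 ratio of 0.88 (0.84 to 0.93) and the polyadenylated by 1.16 (1.09 to 1.22). In shAPC the canonical sum was higher by 0.33 (0.29 to 0.37) and the polyadenylated sum lower, at -0.72 (-0.77 to -0.67). These comparisons share libraries with those between the arms, so that shScr day 3, the library with the least polyadenylated histone RNA, enters both the day 3 difference and the difference between days in shScr. Of 22 genes counted in shScr, 8 were 2-fold higher at day 7 and 0 lower on log2(CPM + 1), against 0.325% and 0.587% of all genes. They were HIST1H1C, HIST1H1D, HIST1H2AC, HIST1H2AE, HIST1H2BJ, HIST1H4H, HIST2H2BE and HIST2H4A. In shAPC, 0 of 22 were higher and 5 were lower (HIST1H2BC, HIST1H2BG, HIST1H2BJ, HIST2H4A and HIST3H2A), against 0.323% and 4.32%.

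For a pair of genes the day 7 level exceeded the day 3 level by like ratios in both arms. HIST1H4C had log2 ratios of 0.91 (0.86 to 0.95) in shScr and 0.95 (0.89 to 1.00) in shAPC, and HIST1H1D 2.65 (1.74 to 3.68) and 2.30 (1.07 to 3.74). HIST1H1E was also higher at day 7 in both, with 7 and 41 UMIs in shScr and 3 and 19 in shAPC. HIST1H2AC, HIST1H2BJ, HIST3H2A and HIST1H4H instead had ratios of 0.77 to 1.65 in shScr and of -1.77 to -0.63 in shAPC. In shAPC the canonical ratio over the days became -1.02 without HIST1H4C and -0.06 with all deposited barcodes.

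The differences were unevenly spread over cells. Among cells of at least 20000 UMIs, whose median depth was 54428 UMIs in shScr day 3 and 58007 in shAPC day 3, the median cell held 1 UMI of HIST1H2AC in shScr day 3 and 2 in shAPC day 3, and the cell with the most held 11 and 223. The 5% of these cells richest in HIST1H2AC held 24.9% of its UMIs in shScr day 3 and 48.7% in shAPC day 3, but also 51.3% in shScr day 7, against 31.6% in shAPC day 7. For HIST3H2A these shares were 30.3%, 69.4%, 55.2% and 35.7%. It had 425 of 689 cells at 0 in shScr day 3 and 238 of 554 in shAPC day 3. The high shares were thus not limited to the APC shRNA, since shScr day 7 had them too. HIST1H4C was concentrated in few cells in every library, with 44.8% to 56.5% of its UMIs in the richest 5%.

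Cells were then divided by whether they held a UMI of ATF3, the gene of a stress-induced transcription factor, and histone UMIs were summed in each part. After each cell was thinned to 2000 UMIs, 22 of 673 cells of shAPC day 3 had an ATF3 UMI, against 2 of 899 in shScr day 3, 11 of 1198 in shScr day 7 and 7 of 1087 in shAPC day 7. In the 22 cells of shAPC day 3 the polyadenylated genes had 1666 CPM (exact Poisson interval 1603 to 1731) against 231 (226 to 236) in the other 651, and the canonical genes 1046 against 211. HIST3H2A had 381 CPM against 36.2 and HIST1H2BJ 299 against 21.5. In shScr day 7 the 11 cells had 1009 CPM of the polyadenylated genes against 144 in the rest, so the pattern was also present in that shScr library. In shAPC day 7 the 7 cells had 403 CPM against 177. The 2 cells of shScr day 3 held only 7 UMIs of these genes, or 99.7 CPM (40.1 to 205) against 71.3 in the rest. Their canonical genes had 42.7 CPM against 189, so the pattern was not seen there. The ATF3-bearing cells of shAPC day 3 were deeper (74231 UMIs in the median against 53731), and those of shScr day 7 were not (27581 against 25881). ATF3 was read from only 2000 UMIs of each cell. The other cells could thus hold ATF3 RNA at full depth, and they were not shown to be free of it. Next, the cells with an ATF3 UMI after thinning were left out, over cells of at least 2000 UMIs. The day 3 log2 ratios were 1.69 (1.63 to 1.76) for the polyadenylated sum and 0.16 (0.11 to 0.21) for the canonical sum. HIST1H2AC then had 1.98 (1.88 to 2.08), HIST3H2A 1.79 (1.63 to 1.96) and HIST1H2BJ 2.81 (2.53 to 3.10). The part of depth in the pattern was not tested.

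**Figure D3:**
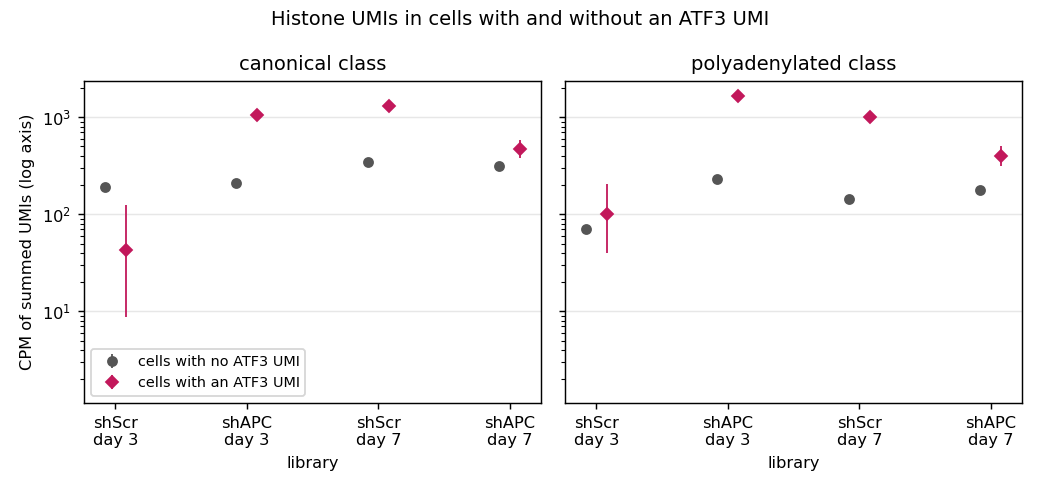
Summed canonical (left) and polyadenylated (right) histone genes, in CPM on a log axis, in cells with and without an ATF3 UMI in each library, with exact Poisson 95% intervals. Cells with an ATF3 UMI numbered 2, 22, 11 and 7 from left to right, and in shAPC day 3 they had 1666 CPM of the polyadenylated genes against 231 in the other cells.

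Cell cycle phase was compared next, since it could be replicated over the 4 libraries. Cells were called G1, S or G2M from the S and G2M gene lists of Seurat, which contain none of the 47 genes, and the histone UMIs were summed per library and phase. Only cells of at least 2000 UMIs, thinned to 2000, were called. The shares called S were 13.6% (11.4 to 16.0) in shScr day 3 and 18.0% (15.1 to 21.1) in shAPC day 3. On day 7 they were 17.6% (15.5 to 19.9) in shScr and 18.5% (16.2 to 20.9) in shAPC. The shares depended on the calls. In the same order they were 10.2%, 10.5%, 21.8% and 15.8% on unthinned cells. On cells thinned to 5000 UMIs they were 10.3%, 13.1%, 15.4% and 16.7%. Filtering left 19 of the 47 genes for the test, which was edgeR's quasi-likelihood test with library as a block.

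HIST1H4C, HIST1H1D and HIST2H2AC were higher in S cells than in G1 cells, and no other of the 19 genes was. HIST1H4C had 36.7 to 73.5 CPM in G1 cells and 234 to 718 in S cells, and no library overlapped. Its log2 fold change was 2.68 (SE 0.24, Benjamini-Hochberg adjusted p = 0.00035, edgeR) and it was higher in 4 of 4 libraries. HIST1H1D, a linker histone, had 0 to 5 UMIs in G1 cells and 1 to 25 in S cells, a fold change of 3.49 (SE 0.47, adjusted p = 5.51e-07, edgeR). HIST2H2AC, an H2A gene, had 1.90 (SE 0.35, adjusted p = 0.000736, edgeR). All 3 are canonical with short annotated ends. The canonical class as a whole did not follow them. Summed without HIST1H4C, it had 28.3 CPM in G1 cells and 31.0 in S cells of shScr day 3. The sum was lower in S cells elsewhere, with 135 and 54.7 in shAPC day 3, 58.7 and 48.7 in shScr day 7, and 58.4 and 51.8 in shAPC day 7. The background share was 12% of the 12006 genes tested higher in S and 9.62% lower, against 3 and 7 of these 19.

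The 7 genes lower in S cells were HIST2H4A, HIST1H4E, HIST3H2A, HIST1H4H, HIST2H2BE, HIST1H2BC and HIST1H1C, 4 of the 7 polyadenylated genes tested and 3 of the 12 canonical ones. HIST1H4H had 5.35, 42.0, 17.5 and 20.5 CPM in G1 cells (shScr then shAPC on day 3, then the same on day 7) and 3.32, 14.1, 8.61 and 12.02 in S cells. It was lower in each library, with a log2 fold change of -1.18 (SE 0.13, adjusted p = 4.24e-09, edgeR). HIST2H2BE had -1.17 (SE 0.17) and HIST1H2BC -0.97 (SE 0.15), both lower in 4 of 4 libraries. HIST3H2A had -1.29 (SE 0.30, adjusted p = 0.0253, edgeR) and HIST1H1C -0.42 (SE 0.12, adjusted p = 0.0168, edgeR), the latter lower in 3 of 4 libraries. Under other filters, scalings, phase calls, a second tool or with a library left out, HIST1H1C was called in 4 of 10 settings, HIST3H2A in 8 of 10, and HIST1H4H, HIST2H2BE and HIST1H2BC in 10 of 10. HIST1H2AC, at -0.88 (SE 0.25), missed the threshold with an adjusted p of 0.0511 (edgeR). HIST2H4A and HIST1H4E rest on 1 to 7 UMIs in S cells of each library. By annotated end, 3 of 8 tested genes with short ends were higher and 2 lower, while 0 of 11 with long ends were higher and 5 lower. ATF3 had 1.04, 58.4, 21.6 and 2.98 CPM in G1 cells and 1.17, 9.30, 11.2 and 4.48 in S cells, with the libraries ordered as for HIST1H4H. The part of the ATF3-bearing cells in the phase differences was not tested.

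**Figure D4:**
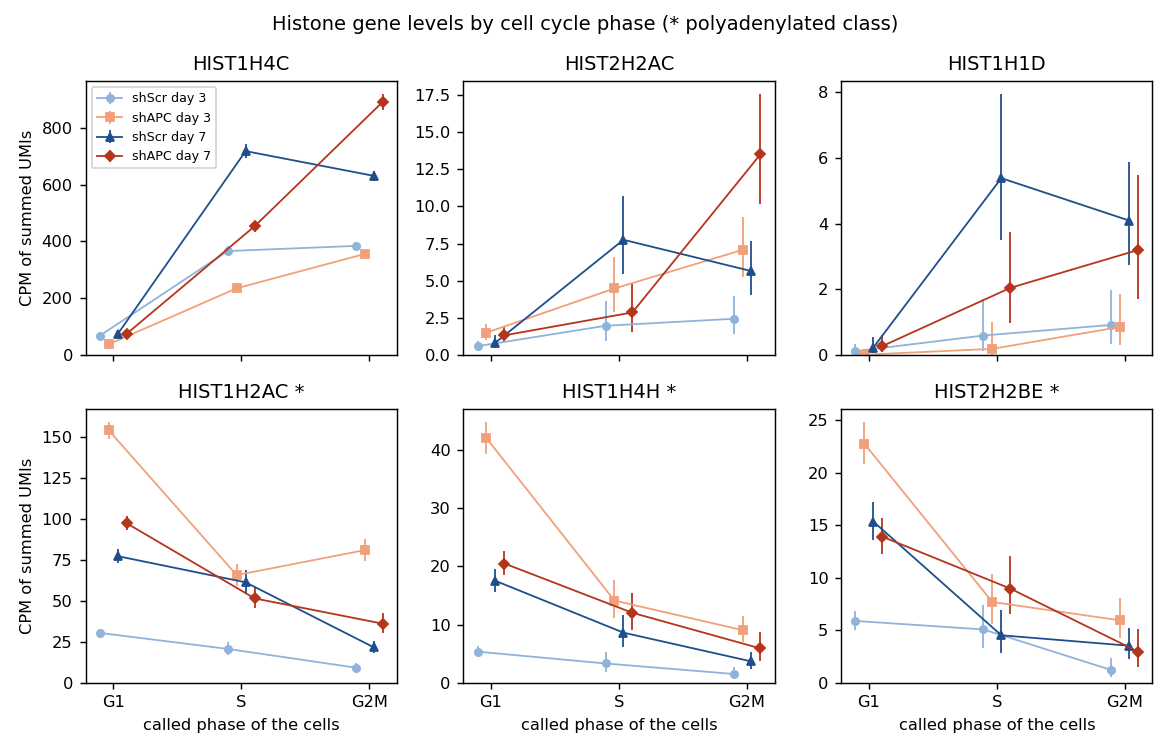
Level of 6 histone genes, in CPM of UMIs summed over the G1, S and G2M cells of each library, with exact Poisson 95% intervals and lines joining the phases of a library. HIST1H4C, HIST2H2AC and HIST1H1D (top) were lowest in G1 cells, and the polyadenylated genes HIST1H2AC, HIST1H4H and HIST2H2BE (bottom, asterisks) were highest there.

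In G2M cells the same 3 genes were higher than in G1 cells, with log2 fold changes of 2.94 (SE 0.24) for HIST1H4C, 3.61 (SE 0.44) for HIST1H1D and 2.46 (SE 0.31) for HIST2H2AC, the last at an adjusted p of 3.31e-06 (edgeR). PCNA, a DNA replication gene, had 102 and 108 CPM in G2M cells of shScr and shAPC on day 3, and 74.7 and 83.6 on day 7. In S cells it had 71.2, 74.5, 78.4 and 72.9 in that order. MKI67 had 108 to 123 CPM in G2M cells and 31.8 to 37.5 in S cells. How far the cells called G2M included cells copying DNA was not tested. Lower were 10 genes, 6 of them polyadenylated. HIST1H4H had -2.24 (SE 0.14), HIST2H2BE -2.22 (SE 0.18), HIST1H2BC -1.64 (SE 0.16), HIST1H2AC -1.54 (SE 0.25, adjusted p = 0.00254, edgeR) and HIST1H2BD -1.03 (SE 0.13), each lower in 4 of 4 libraries. HIST1H2BJ, the only polyadenylated gene tested and not called, had -0.56 (SE 0.42, adjusted p = 0.325, edgeR). The remaining genes called lower were HIST1H1C, HIST3H2A, HIST1H4E, HIST1H2AE and HIST1H3E. The background was 22.3% of genes higher and 25.1% lower in G2M cells. Without the library term in the model 1 gene was called in S cells (HIST1H4C) and 7 in G2M cells, and without shAPC day 7 the counts were 6 and 8.

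**Figure D5:**
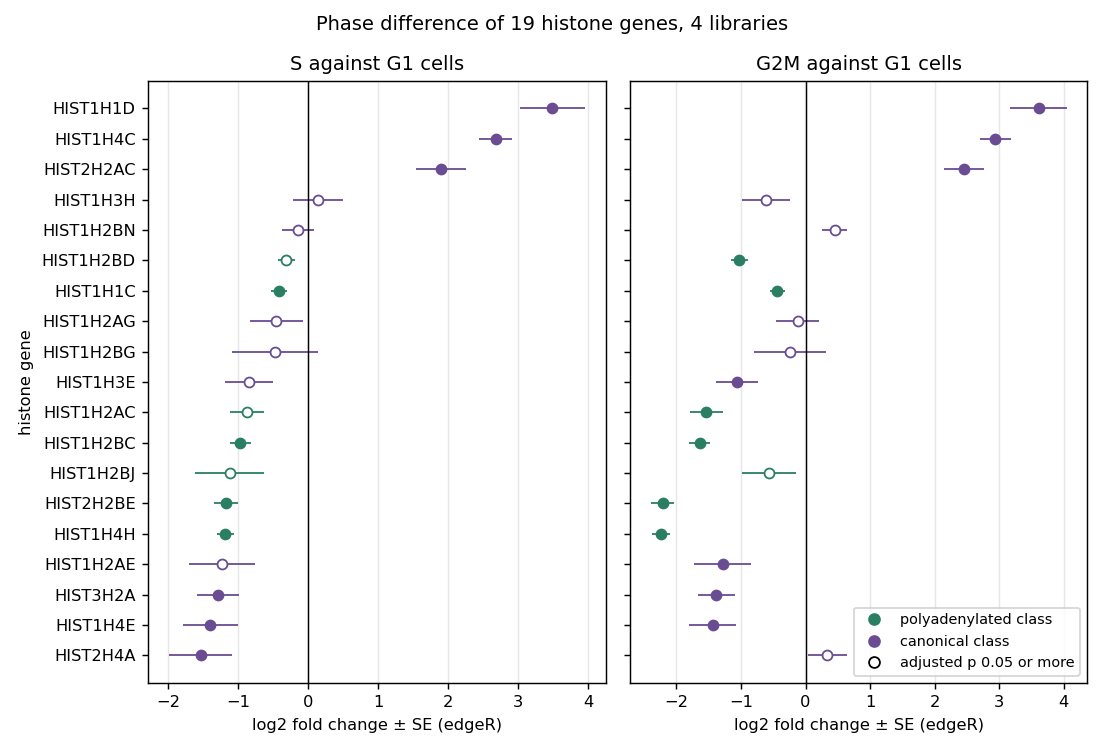
Log2 fold change with its standard error for 19 histone genes in S (left) and G2M cells (right) against G1 cells, from edgeR over the 4 libraries. Filled points have an adjusted p under 0.05, which holds for 10 genes in S and 13 in G2M cells. No polyadenylated gene lay right of 0 in either panel.

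The shAPC against shScr ratios were recomputed inside each called phase, so that the called shares of S and G2M cells did not enter. Errors of the phase calls and differences within a phase could still enter, and their part was not tested. At day 3 the polyadenylated ratio was 2.17 (2.11 to 2.24) in G1 cells, 1.37 (1.18 to 1.56) in S cells and 2.28 (2.08 to 2.47) in G2M cells. The canonical ratio was 0.85 (0.78 to 0.93) in G1, -0.46 (-0.55 to -0.36) in S and 0.12 (0.05 to 0.20) in G2M. HIST1H4C was lower in shAPC day 3 in all 3 phases, at -0.86 in G1, -0.64 in S and -0.11 in G2M cells, and the canonical genes without it were higher in all 3, at 2.25, 0.82 and 1.43. At day 7 HIST1H4C had 0.02 (-0.09 to 0.13) in G1, -0.66 (-0.74 to -0.59) in S and 0.50 (0.44 to 0.56) in G2M cells.

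Head-to-head pairs were compared because their members share the stretch between their start sites. In the pair HIST2H2BE and HIST2H2AC, printed above, the former was lower in S cells (-1.17) and the latter higher (1.90), while both were higher in shAPC at day 3, by 1.75 and 1.52. In the pair HIST1H2BC and HIST1H2AC the day 3 ratios were 1.16 and 2.29 and the day 7 ratios -0.82 and 0.36, so the members lay on opposite sides of 0 at day 7. For HIST1H2BG and HIST1H2AE the day 3 ratios were 1.75 and 3.92, for HIST1H2BJ and HIST1H2AG 3.48 and 2.58, and for HIST3H2A and HIST3H2BB 2.32 and 2.69. In each of these 5 pairs both members were thus higher in shAPC at day 3. The median of all genes was also higher there, at 0.30 on log2(CPM + 1), and these members were already given above as higher. No conclusion on shared control is therefore drawn from the pairs. The other 3 pairs had a member with 5 UMIs at most. HIST1H2BK and HIST1H2AH, head to head but not among the pairs found, had day 3 ratios of -0.51 (-1.23 to 0.19) and 0.19 (-1.72 to 2.09). HIST1H2AH rested on 6 UMIs in each day 3 library.

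Other genes of the histone pathway were taken from fixed lists, and on plain log2 ratios few of them were 2-fold apart between the arms. Of 11 variant histone genes outside the clusters, 1 was 2-fold higher in shAPC at day 3 (H1F0, a linker histone of resting cells, 9.98 and 23.1 CPM, 1.21) and at day 7 1 was lower (CENPA, the H3 of centromeres, -1.06). On these plain ratios 8.78% of all genes with at least 30 UMIs were 2-fold higher and 0.661% lower at day 3, and 3.7% and 2.31% at day 7. Of 16 genes of histone mRNA transcription and processing, 1 was higher at day 3 (HINFP, a factor of H4 promoters, 1.05) and 0 at day 7, and SLBP, which binds the stem-loop, had 0.10 and -0.41. Of 9 histone chaperones, 0 were 2-fold apart on either day. With TMM scaling, H1F0 (0.83) and HINFP (0.67) were no longer 2-fold apart at day 3. By phase, 7 of 11 variants, 11 of 16 processing genes and 5 of 9 chaperones were higher in S than in G1 cells with an adjusted p under 0.05 (edgeR), against 12% of all genes tested, and 0, 1 and 0 were lower, against 9.62%. Among the higher genes were H2AFZ (1.22) and ASF1B, a chaperone of H3 and H4 (3.89), and the lower gene was HINFP (-0.52). SLBP (0.91), CCNE2, a cyclin of S phase entry (3.73), CASP8AP2, NASP and CHAF1B were also higher. These last genes are in the S list from which the phases were called, and the variant CENPA is in the G2M list. Their calls were therefore built in, and the counts by phase include them, so no conclusion is drawn from those counts.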

How the data were processed

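Barcodes with at least 200 genes, 500 UMIs and under 5% mitochondrial UMIs were kept. The deposited matrices hold raw UMI counts per gene and cell barcode, which the authors made with Cell Ranger from reads aligned by STAR to GRCh38 (Cell Ranger 3.0.2 in the submitters' processing notes, and per the file headers 3.0.2 for the shScr and 3.0.0 for the shAPC libraries, so that version and shRNA cannot be told apart). The labels and methods differ on the kit version, the virus and the puromycin concentration. No doublets were removed here, and leaving out the 5% of cells with the most UMIs served as an alternative.

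UMIs were summed per library and scaled to CPM by the kept total. Ratios carry exact conditional binomial intervals and CPM exact Poisson intervals, for counting error only, and no ratio was given where both libraries had 3 counts or fewer. Fold counts used a pseudocount of 1 CPM. Cells of at least 2000 UMIs were thinned to 2000 UMIs, the histone genes were removed, and phases were called with Seurat 5.3.0. The 12 sums of library and phase were fitted with edgeR 4.0.16 (TMM, filterByExpr, library as a block, Benjamini-Hochberg over 12006 genes), after the script had been tested on simulated data. DESeq2 1.42.0 was an alternative. The 4 libraries may not vary as separate cultures of 1 group would.

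Named genes were the 12 with the highest mean CPM, the 5 highest and 5 lowest shAPC/shScr ratios at each day among genes with at least 30 UMIs, and the genes called between S and G1 cells. HIST1H3E, HIST1H2BD, HIST1H1B and genes named in counts or pairs were added after their values were seen. The genes, classes and lists were chosen with earlier results of these data known. Of the 47 genes, 14 overlap another gene on the same strand in GENCODE 44, HIST1H2AC, HIST3H2A, HIST1H2BC and HIST1H2AE among them, and how the authors counted such reads is not given in the sources used here. ATF3 was chosen after its values were seen.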

Additional observations from a re-analysis of the deposited data

Results flagged for a closer look

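The comparison of shAPC with shScr lay on opposite sides of 0 at day 3 and day 7, with both counting intervals off 0, for 1 named gene and 1 class. HIST1H2BC had a log2 ratio of 1.16 at day 3 and -0.82 at day 7, from 352 and 691 UMIs and from 432 and 223 UMIs. The canonical sum had 0.40 at day 3 and -0.15 at day 7. With 1 library per group, the difference between the days was not tested for either.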

How the results depend on the processing

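Values are log2 ratios in the order shAPC against shScr at day 3 and day 7, then day 7 against day 3 in shScr and in shAPC, and only those that moved beyond the counting interval are given. The cause of each shift was not tested. For the canonical sum (0.40, -0.15, 0.88 and 0.33 as reported), TMM gave 0.024 at day 3, 0.82 in shScr and 0.63 in shAPC, DESeq2 size factors 0.040 at day 3 and 0.64 in shAPC, and totals without mitochondrial and ribosomal protein genes 0.29, -0.089 and, in shAPC, 0.51. All deposited barcodes gave -0.42 at day 7, 0.73 and -0.058, cells with at least 2000 genes 0.94 in shScr, and leaving out the 5% deepest cells 0.22 at day 3, 0.97 and 0.57. A mean over cells gave 0.27, 0.15, 0.37 and 0.26, the sum without HIST1H4C 1.92, 0.14, 0.77 and -1.02, and classes from the annotation 0.31 at day 3, 0.94 and 0.49.

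For the polyadenylated sum (2.05, 0.17, 1.16 and -0.72), TMM gave 1.67 at day 3 and -0.42 in shAPC, DESeq2 size factors 1.68 and -0.42, and totals without mitochondrial and ribosomal protein genes 1.93, 0.23 and, in shAPC, -0.54. All barcodes gave 1.83 at day 3 and -0.56 in shAPC, cells with at least 2000 genes 1.08 in shScr and -0.78 in shAPC, and leaving out the deepest cells 1.36, 0.41, 0.83 and -0.13. A mean over cells gave 1.55, -0.055, 1.29 and -0.31, the sum without HIST1H2AC 1.89, 0.025, 1.08 and -0.79, and annotation classes 1.03 in shScr and -0.90 in shAPC.

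Alternatives chosen after seeing the data were these. Without shared barcodes the canonical sum had 0.25 at day 3 and 0.48 in shAPC, and the polyadenylated sum 1.88 and -0.55. Without HIST1H4C and HIST3H2A the canonical sum had 1.66, 0.17, 0.76 and -0.74. Without cells with an ATF3 UMI after thinning, the canonical sum had 0.16 at day 3 and 0.57 in shAPC, and the polyadenylated sum 1.69, 0.29, 1.02 and -0.38. Within G1, S and G2M cells the canonical sum had 0.85, -0.46 and 0.12 at day 3 and 0.010, -0.60 and 0.50 at day 7, and the polyadenylated sum 2.17, 1.37 and 2.28 at day 3 and, in S and G2M cells, -0.20 and 0.30 at day 7.

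The count of 6 genes at least 2-fold apart at day 3 became 11 with no CPM minimum, 1 with a minimum of 100 CPM and 3 without the deepest cells, and the count of 0 at day 7 became 1 with a mean over cells. That mean also turned HIST1H4C (0.090), HIST1H1C (-0.18) and HIST1H4H (-0.12) at day 7 and HIST1H2BN (-0.29) at day 3. The 10 genes called in S cells became 1 and the 13 in G2M cells 7 without the library term, 8 and 12 with DESeq2, and 6 to 11 and 8 to 16 when each library was left out in turn, with the fewest calls without shAPC day 7. The phase fit paired the phases within each library; shAPC and shScr were not fitted with day as a block, which would have taken the 2 days as replicates.

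The limits are 1 library per group, a depth per cell that differed between libraries, priming on poly(A), and genes with few UMIs.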
